A study of Mus musculus with 9 samples.

Results

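The comparison set both Tlr9 mutant genotypes, KO and P915H, against WT in age-associated B cells, and asked which accessible DNA regions (peaks) differed from WT in the same direction in both. The rule took the mean of the KO and the P915H samples with equal weight for each genotype, used every peak, and required KO minus WT and P915H minus WT to have the same sign. All 9 samples of the series enter it, 6 mutant and 3 WT, and all 61540 peaks. ATAC-seq, a method whose transposase cuts open DNA and tags the cut ends for sequencing, gave the accessibility of each peak. Spleens of bone-marrow chimeras aged 20 weeks were the source, cells were isolated by flow sorting, and libraries were made from 20000 to 50000 viable cells each. The mice had received a mixture of marrow of 3 genotypes: Tlr9-/- (KO), which lacks the receptor, Tlr9 P915H/P915H (P915H), which the submitters call non-signaling, and Tlr9 intact (WT). Every genotype was on the MRL/lpr background, which carries the Fas lpr mutation and develops a disease like systemic lupus erythematosus, so that WT is itself a lupus-prone control. There were 3 samples per genotype, numbered 1 to 3. Whether samples came from the same or different hosts, or from pooled mice, is not in the labels. The p-values then cover only the variation among these libraries.

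TLR9 is an endosomal receptor of B cells and dendritic cells that binds unmethylated CpG DNA and signals through the adaptor MyD88 and the IRAK kinases to NF-kB and interferon regulatory factors. Loss of the whole receptor and loss of its signalling are different lesions, because a receptor that cannot signal may still bind DNA and compete with TLR7 for transport to endosomes. Age-associated B cells are a memory-like B cell class marked by T-bet (Tbx21) and CD11c (Itgax). They accumulate with age and in lupus, and TLR7 and TLR9 ligands are among the signals that drive them.

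The values were log2 of accessibility on a scale like CPM of reads in peaks (each library scaled to the same total), as the authors deposited them. A difference of 1 is a 2-fold difference. Averaging KO, P915H and WT at a peak gave one value whichever replicate number was used, to within 1.78e-14, so an effect of the replicate number had been taken out before deposit. Within a number, the mutants-minus-WT difference therefore follows from how far the WT sample stands from that common mean. SDs within a genotype understate the spread for the same reason, and the tests carry the replicate number as a term. Read totals cannot be recovered from these values, so the depth of each sample is unknown. Coordinates are mm10. Gene places and start sites come from RefSeq tables of GRCm38.p6, which give gene spans without exons, so exon and intron are not told apart.

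No peak passed the test for a shared difference. The count was 0 of 61540 peaks (0%) at an adjusted p under 0.05, with 0 lower and 0 higher, and the smallest adjusted p was 0.243. At an unadjusted p under 0.05, 2849 peaks (4.63%) passed, of which 2288 (3.72% of all peaks) had the same sign in both mutants, 1146 lower (1.86%) and 1142 higher (1.86%). That split was not stable: it was 1445 lower and 2265 higher without WT replicate 1, 772 and 1857 without WT replicate 2, 1824 and 1098 with sample weights, and 1456 and 770 for within-replicate differences. The 6 mutant values and the 3 WT values did not overlap at 2062 peaks (3.35%), 1073 lower in the mutants (1.74%) and 989 higher (1.61%). KO and P915H stood on the same side of WT at 29255 peaks (47.5%); the 2 comparisons share the WT samples. In the same fit, KO against WT passed at 12 peaks (0.0195%), P915H against WT at 157 (0.255%) and KO against P915H at 9548 (15.5%). These counts depend on the processing and on single libraries. KO against WT gave 643 peaks with median normalization, 705 with quantile normalization, 408 with robust variance and 1536 with sample weights. P915H against WT gave 207, 160, 193 and 627 in the same order. KO against WT gave 3340 peaks without KO replicate 1 and 1 or 2 without each of the other 8 samples, P915H against WT gave 7 (without WT replicate 1) to 111 (without WT replicate 3), and KO against P915H gave 3225 (without P915H replicate 2) to 10991 (without WT replicate 3).

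The differences of the combined mutants from WT were small. Their median absolute size was 0.12 on the log2 scale, against 0.20 for KO minus WT, 0.15 for P915H minus WT and 0.23 for KO minus P915H. A difference beyond 2-fold was found at 87 peaks for the combined mutants, 74 lower and 13 higher, and at 5113 peaks for KO minus P915H. The count of 87 did not require the same sign in both mutants. The lowest log2 value of a sample was -8.48 to -6.89 in the mutants and -1.88 to -0.94 in WT. Whether such low values shaped the split was not tested. The median standard error of the combined difference was 0.163 log2. Its 95% interval lay inside 2-fold in either direction at 94.9% of peaks and inside 1.5-fold at 64.6%. Of the sum of squares about each peak's mean, the combined mutants against WT took 10.3%, KO against P915H 52.9% and the remainder 36.8%. Per degree of freedom these were mean squares of 0.0947, 0.486 and 0.0845. The median squares over peaks lay closer together, at 0.0282, 0.0811 and 0.0473 in the same order.

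**Figure D1:**
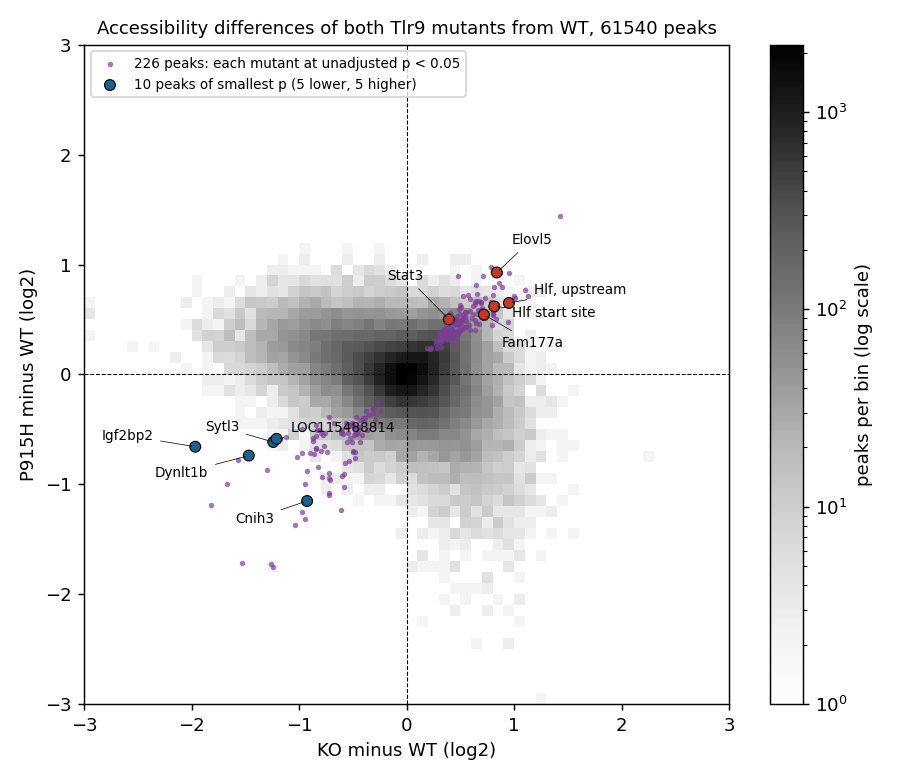
KO minus WT (x axis, log2) against P915H minus WT (y axis, log2) for 61540 peaks, grey by the number of peaks per bin on a log scale, with differences beyond 3 drawn in the edge bins. Purple points are the 226 peaks where each mutant differs from WT at an unadjusted p under 0.05 in the same direction, and large points are the 5 lower (blue) and 5 higher (red) peaks of smallest p; both axes subtract the same 3 WT samples.

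The 5 lower and 5 higher peaks described next are those of smallest p in each direction, and none passed the test. Of the lower peaks, 3 belong to 1 stretch of chromosome 17 that runs from Dynlt1b to Sytl3. Dynlt1b encodes a light chain of the dynein motor, and Sytl3 encodes a synaptotagmin-like protein that binds Rab27 on vesicles. The Dynlt1b peak (chr17:6424498-6424996) lies 4534 bp outside the gene. Its log2 values were 2.81, 2.52 and 2.68 in KO, 3.44, 3.53 and 3.22 in P915H, and 3.96, 4.15 and 4.31 in WT. All 6 mutant values were below all 3 WT values, and KO was below P915H. The combined difference was -1.10 (SE 0.14, 2.15-fold lower, n = 6 and 3, adjusted p = 0.243 by limma), with -1.47 in KO and -0.74 in P915H.

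The Sytl3 peak (chr17:6661108-6661430) lies within the gene, 2049 bp from its start site. It held 3.25, 3.12 and 3.02 in KO, 3.82, 3.74 and 3.71 in P915H, and 4.19, 4.40 and 4.52 in WT on the log2 scale. The genotypes were ordered KO, P915H, WT without overlap, and the combined difference was -0.93 (SE 0.12, adjusted p = 0.243, limma). Between them, within the long non-coding RNA LOC115488814, the peak at chr17:6596069-6596450 showed the same order. Its values were 3.41, 3.31 and 3.22 in KO, 4.08, 3.92 and 3.82 in P915H, and 4.29, 4.55 and 4.74 in WT, a combined difference of -0.90 (SE 0.13, adjusted p = 0.414, limma).

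The stretch from the Dynlt1b to the Sytl3 peak spans 236.9 kb and holds 23 peaks. The combined difference was below 0 at 19 of them, the same sign was lower in both mutants at 10, and 4 had no overlap (1.74% of all peaks were lower with no overlap). The median over the 23 peaks was -0.14, beside -0.01 over all peaks; the stretch was chosen for its lowest peaks. The mutants went opposite ways at some peaks here: at chr17:6593204-6593587, KO minus WT was 0.68 and P915H minus WT was -1.91. The stretch contains near-identical copies of Dynlt1 (Dynlt1b, Dynlt1c, Dynlt1f) and neighbouring pseudogenes, and the authors' treatment of reads that match several copies was not given in the sources used here. Which copy the reads came from is therefore uncertain.

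Cnih3, which encodes a cornichon protein known as an auxiliary subunit of AMPA receptors, had the lower peak on which both mutants were most alike among the 5 lower peaks. This peak (chr1:181335554-181335772) lies 14687 bp outside the gene. Its values were 2.44, 2.56 and 2.43 in KO, 2.29, 2.20 and 2.26 in P915H, and 3.39, 3.37 and 3.44 in WT. The groups did not overlap, and the SD within each was 0.07, 0.05 and 0.04. The combined difference was -1.04 (SE 0.14, 2.05-fold lower, adjusted p = 0.243, limma). A second peak nearer the gene, 11144 bp from it (chr1:181339139-181339315), chosen after its values were seen, was at -1.20 (SE 0.26, adjusted p = 0.890, limma), and KO minus P915H there was 0.34 (adjusted p = 0.511). Of 10 other peaks within 100 kb of the Cnih3 peak, 3 were lower with no overlap, beside 1.74% of all peaks. The second peak is 1 of the 3, and the place was chosen because its peak was low.

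Igf2bp2 encodes an RNA-binding protein that regulates the stability and translation of target mRNAs. Its peak (chr16:22059084-22059252), within the gene, had the largest combined difference of the 10 peaks, -1.31 (SE 0.20, adjusted p = 0.466, limma). Values were 1.13, 0.78 and 1.16 in KO, 2.38, 2.21 and 2.40 in P915H, and 2.83, 3.35 and 2.79 in WT. KO lay farther below WT (-1.97) than P915H did (-0.66), and none of the 8 other peaks within 100 kb was lower with no overlap.

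**Figure D2:**
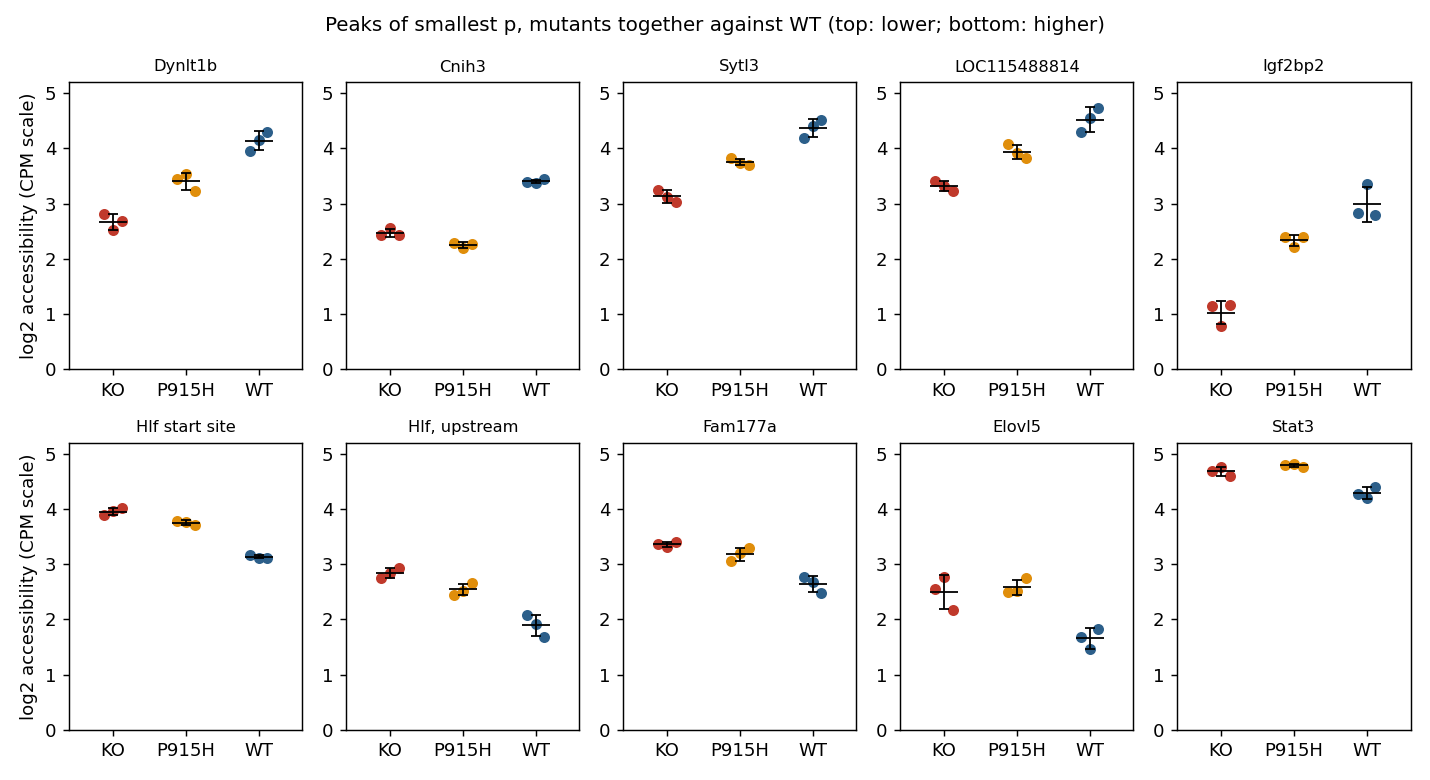
Log2 accessibility on the CPM scale in each sample (points) with mean and SD (bars, n = 3) for the 5 lower (top row) and 5 higher (bottom row) peaks of smallest p. In each panel the 6 mutant points lie to one side of the 3 WT points, and in Dynlt1b, Sytl3, LOC115488814 and Igf2bp2 KO lies farther from WT than P915H.

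Hlf had the higher peak of smallest p and the only one of the 10 peaks that covers a start site in the RefSeq table. It encodes hepatic leukaemia factor, a PAR bZIP transcription factor known from circadian output and haematopoietic stem cells. The 250 bases before its start site (chr11:90390918-90391167, minus strand, RefSeq on GRCm38.p6) are shown with the 144 bases inside the peak in capitals. For comparison, the same stretch of Ccne1 (chr7:38107491-38107740, minus strand), a cell cycle gene whose peak also covers its start site and was also higher, and of Tlr9 (chr9:106222348-106222597, plus strand), the gene altered in the mutants, follow. Their peaks cover 74 and 250 of the bases. Ccne1 also has a stronger peak within 1 kb of a start site, which was at most 0.24 higher.
Hlf: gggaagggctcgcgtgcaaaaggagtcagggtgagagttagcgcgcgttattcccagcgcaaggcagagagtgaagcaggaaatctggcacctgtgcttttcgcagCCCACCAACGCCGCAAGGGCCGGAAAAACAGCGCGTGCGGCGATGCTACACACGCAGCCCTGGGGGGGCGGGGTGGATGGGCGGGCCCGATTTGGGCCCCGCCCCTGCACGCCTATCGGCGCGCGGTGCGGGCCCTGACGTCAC
Ccne1: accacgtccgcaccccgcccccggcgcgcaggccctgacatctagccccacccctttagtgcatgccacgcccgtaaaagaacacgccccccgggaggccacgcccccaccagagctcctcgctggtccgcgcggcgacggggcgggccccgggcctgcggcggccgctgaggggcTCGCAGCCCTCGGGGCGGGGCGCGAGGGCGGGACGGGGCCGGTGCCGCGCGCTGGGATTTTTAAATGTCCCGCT
Tlr9: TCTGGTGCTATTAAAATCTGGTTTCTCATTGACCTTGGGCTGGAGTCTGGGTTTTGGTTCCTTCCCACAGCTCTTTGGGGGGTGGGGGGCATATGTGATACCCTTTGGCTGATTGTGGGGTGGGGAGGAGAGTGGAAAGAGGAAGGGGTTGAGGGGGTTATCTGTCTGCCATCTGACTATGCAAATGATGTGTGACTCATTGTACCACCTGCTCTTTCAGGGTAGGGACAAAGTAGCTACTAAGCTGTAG
The Hlf and Ccne1 stretches are rich in G and C, and the Tlr9 stretch is not.

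The Hlf stretch is 67.2% G and C with 26 CpG, the Ccne1 stretch 76% with 34, and the Tlr9 stretch 50.4% with 0. Over 32817 such stretches the medians were 52.4% and 6. On either strand, the GC box GGGCGG matched 3 times in Hlf and 4 times in Ccne1, and 32.7% of all stretches hold it. The cyclic AMP response element TGACGTCA, added to the search after the sequences were seen, matched once in Hlf and is held by 1.55% of stretches. The AP-1 motif TGANTCA matched once in Tlr9 and is held by 6.75%. Matches of different motifs did not overlap. The ETS motif CCGGAAG, the E-box CACGTG, the core of the interferon-stimulated response element and the PAR bZIP motif TTACGTAA, also searched on both strands, had no match in these 3 windows and are held by 6.90%, 6.02%, 2.97% and 0.113% of all.

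At the Hlf start site (chr11:90390855-90391061), log2 values were 3.89, 3.96 and 4.01 in KO, 3.79, 3.77 and 3.72 in P915H, and 3.18, 3.12 and 3.12 in WT. The mutant and WT values did not overlap, and the 3 within-replicate differences were close, at 0.66, 0.75 and 0.74. Choosing the peak for its small p favoured both. The combined difference was 0.72 (SE 0.11, 1.64-fold higher, adjusted p = 0.466, limma), 0.81 in KO and 0.62 in P915H. A peak 26907 bp upstream (chr11:90417824-90418218) stood at 2.76, 2.84 and 2.94 in KO, 2.45, 2.52 and 2.66 in P915H, and 2.07, 1.92 and 1.68 in WT. It was 0.80 higher in the combined mutants (SE 0.16, adjusted p = 0.890, limma). Its within-replicate differences were farther apart, at 0.53, 0.76 and 1.11. The 3 other peaks within 100 kb of the start-site peak were all higher with no overlap, beside 1.61% of all peaks. The upstream peak is 1 of the 3, and the place was chosen because its peaks were high.

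Fam177a, which encodes a Golgi-associated protein, held the third higher peak (chr12:55124258-55124979), within the gene. Values were 3.37, 3.31 and 3.41 in KO, 3.06, 3.20 and 3.30 in P915H, and 2.76, 2.68 and 2.49 in WT, without overlap. The combined difference was 0.63 (SE 0.13, adjusted p = 0.890, limma). The 75.9 kb from there to Fam177a2 hold 7 peaks, all above 0 in both mutants, 6 with no overlap (1.61% of all peaks were higher with no overlap), with a median of 0.34; the stretch was chosen because the peaks at its ends were high. Peaks of Fam177a2, chosen after their values were seen, were at 0.69 (SE 0.17) and 0.61 (SE 0.15), and the others were assigned to Srp54b, which encodes a subunit of the signal recognition particle. The stretch is a tandem duplication, so its peaks share sequence and are not independent measurements, and the copy the reads came from is uncertain.

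Elovl5 encodes an enzyme that elongates polyunsaturated fatty acids. Its peak within the gene (chr9:77937977-77938178) stood at 2.55, 2.77 and 2.17 in KO, 2.50, 2.51 and 2.74 in P915H, and 1.69, 1.46 and 1.83 in WT. Both mutants were higher by similar amounts, 0.84 and 0.93, for a combined difference of 0.88 (SE 0.19, adjusted p = 0.890, limma). Of 17 other peaks within 100 kb, 10 had a combined difference above 0, and 0 were higher with no overlap. Stat3, which transmits signals of interleukins 6, 10 and 21 in B cells, had a peak within the gene (chr11:100897356-100897566) at 4.69, 4.76 and 4.60 in KO, 4.80, 4.82 and 4.76 in P915H, and 4.27, 4.19 and 4.41 in WT. It was 0.45 higher (SE 0.10, adjusted p = 0.890, limma), without overlap, and 0 of the 25 other peaks within 100 kb was higher with no overlap.

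**Figure D3:**
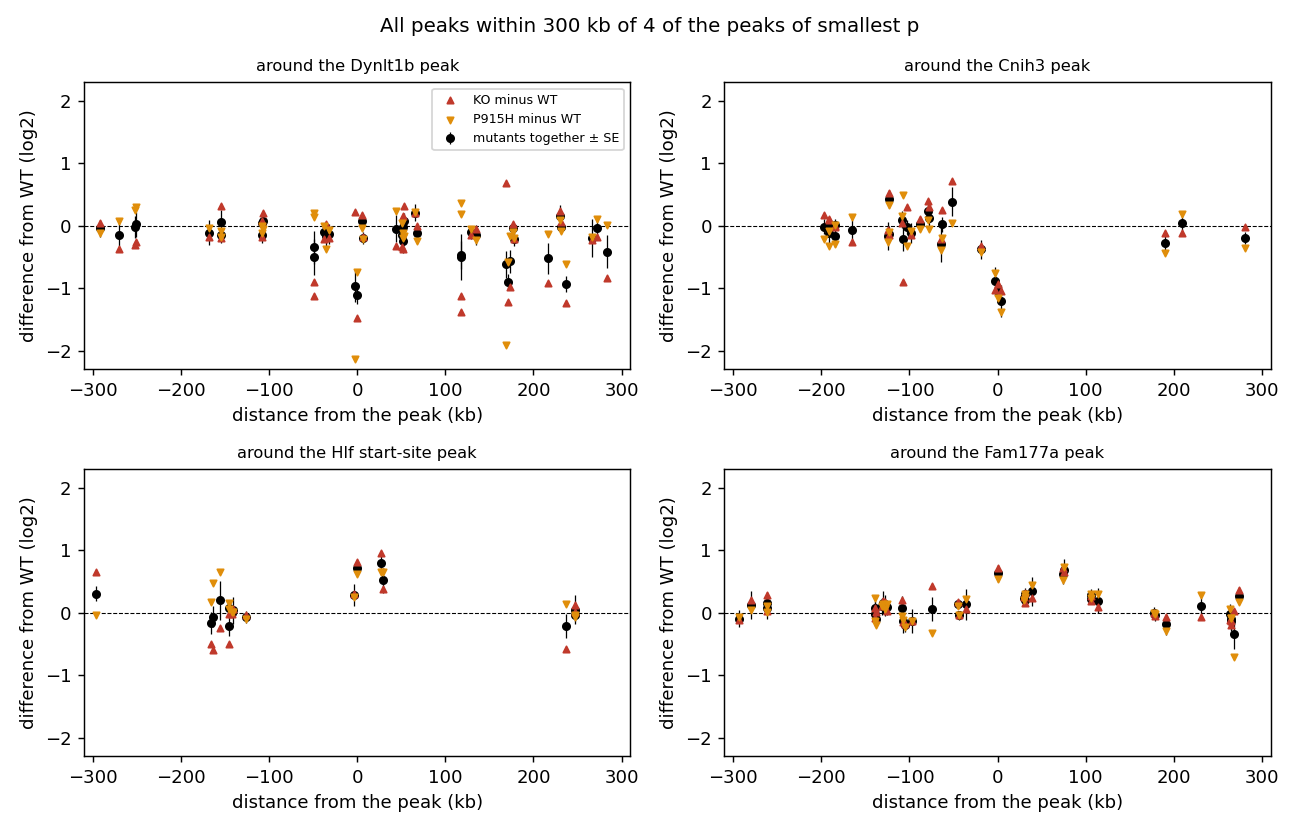
Difference from WT (log2) of all peaks within 300 kb of the Dynlt1b, Cnih3, Hlf start-site and Fam177a peaks, by distance in kb: black points are the combined mutants with SE, red triangles KO and orange triangles P915H. The 3 other peaks within 100 kb of Hlf lie above 0 in both mutants, as do 9 of 11 around Fam177a in the combined difference, and in the Dynlt1b panel KO and P915H lie apart at many peaks.

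At Tlr9 itself, the start-site peak (chr9:106222230-106222641) was open in every sample. Its values were 6.02, 5.75 and 5.86 in KO, 5.97 to 6.11 in P915H, and 5.97, 6.13 and 6.16 in WT. The combined difference was -0.14 (95% interval -0.34 to 0.06, adjusted p = 0.890, limma), and the groups overlapped. A second peak at the start of the gene (chr9:106222910-106223290) was also at -0.14 (95% interval -0.40 to 0.12). The labels do not give the DNA removed in KO, so these peaks do not check the genotype. The peak 3143 bp outside the gene (chr9:106230019-106230222) was not chosen by place. Among the 120 peaks of the endosomal Toll-like receptor list, it had the smallest p with the same sign in both mutants. It was at -0.33 (SE 0.12, adjusted p = 0.890), with all mutant values, 3.30 to 3.64, below those of WT, 3.73 to 3.87. KO minus WT was -0.19 (unadjusted p = 0.173, limma) and P915H minus WT was -0.46 (unadjusted p = 0.00589, limma).

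Start-site peaks were found for 20 of the 29 listed genes of endosomal Toll-like receptors, their chaperones and their adaptors. Their combined differences ran from -0.14 at Tlr9 to 0.23 at Tab2, which encodes an adaptor of the kinase TAK1, and 0 had non-overlapping groups. All 20 of their 95% intervals lay inside 2-fold. Myd88, the adaptor of TLR9, was at 0.01 (SE 0.09) and Irf7, the interferon regulator downstream of it, at -0.07 (SE 0.10). Irak4, the first kinase after MyD88, was at 0.06 (SE 0.08). Of the 120 peaks assigned to the list's genes, 0 passed the test and the median was -0.02, beside -0.01 over all peaks. NF-kB subunits, regulators and targets had 187 peaks with 0 passing and a median of -0.03; their peak of smallest p, within Ikbkb (IKK-beta), was at -0.55 (SE 0.14), with values of 3.01 to 3.73 in the mutants and 3.81 to 4.03 in WT. The type I interferon list had 108 peaks, 0 passing and a median of 0.03.

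Across all 20 gene lists (380 genes, 342 with a peak, 2471 peaks), 0 peaks passed. The medians of 15 lists lay below 0, as did the median over all peaks, and 3 lists had a median beyond 0.05 in either direction. They were natural killer cells at -0.14 (17 peaks), erythroid cells at 0.10 (7 peaks) and follicular and naive B cells at -0.07 (292 peaks). In the last, the median of KO minus WT was -0.16 and that of P915H minus WT was 0.06. The list of age-associated B cells, 141 peaks, had a median of -0.03. Its 14 start-site peaks ran from -0.17 at Fcrla to 0.54 at Apoe (SE 0.21, unadjusted p = 0.0281, adjusted p = 0.890, limma), with Tbx21 at 0.12 (SE 0.15) and Itgax at 0.28 (SE 0.14). At Itgax the mutants differed from each other, with 0.56 in KO and -0.01 in P915H (adjusted p of KO minus P915H = 0.0432, limma), and at Fcer1g they lay on opposite sides of WT, with 0.89 in KO and -1.13 in P915H (adjusted p of KO minus P915H = 0.00398, limma).

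**Figure D4:**
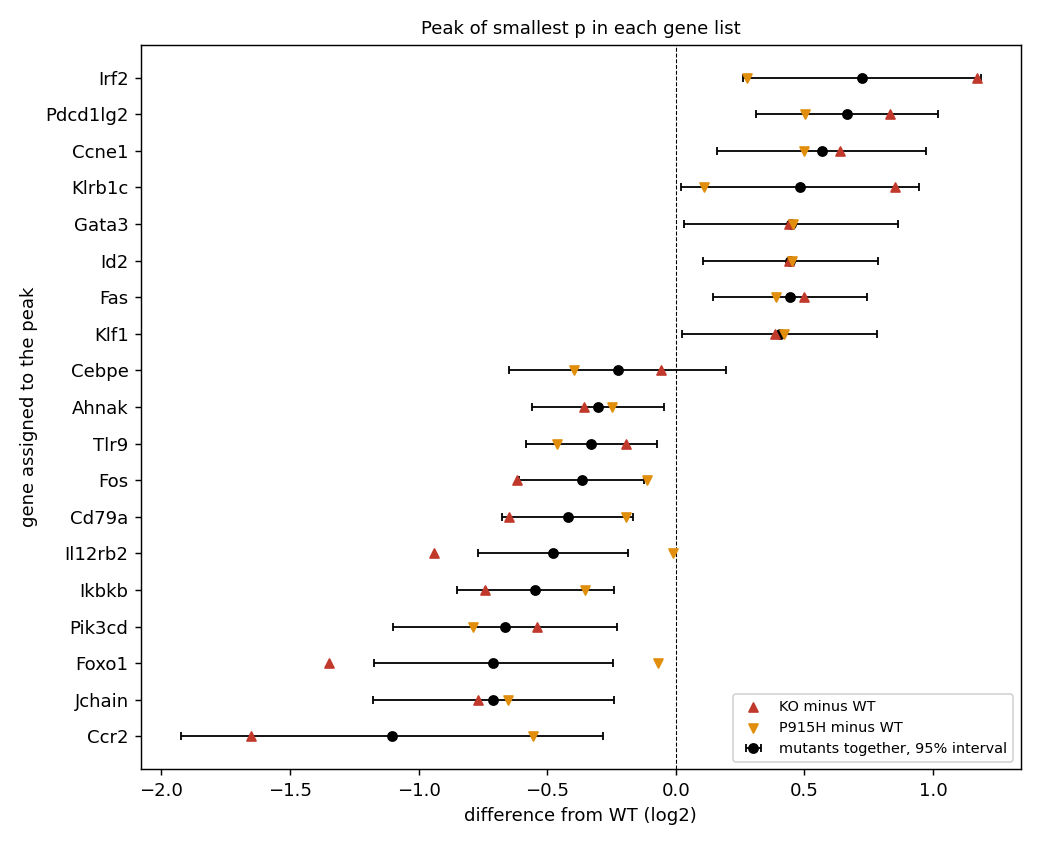
Combined difference from WT with its 95% interval (black) and the KO and P915H differences (triangles), log2, for the peak of smallest p with the same sign in both mutants in each of the gene lists; Fas is the peak of 2 lists. Irf2, Foxo1, Il12rb2, Fos, Cd79a and Klrb1c have KO far from WT and P915H near it.

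Of the 2471 list peaks, 9 (0.364%) had each mutant at an unadjusted p under 0.05 in the same direction, beside 226 of all peaks (0.367%), 95 lower (0.154%) and 131 higher (0.213%). Of these, the peaks assigned to the neighbouring PD-1 ligand genes, 1 each, differed in direction. Cd274 (PD-L1) had a peak within the gene (chr19:29383439-29383685) at 2.03, 1.78 and 2.13 in KO, 2.11, 2.50 and 2.32 in P915H, and 2.97, 2.83 and 2.66 in WT. The other peak (chr19:29399872-29400085) lies 10834 bp outside Pdcd1lg2 (PD-L2), the neighbour of Cd274, and was assigned to it only as the nearest gene. It stood at 2.97, 3.21 and 2.99 in KO, 2.67, 2.83 and 2.68 in P915H, and 2.37, 1.97 and 2.34 in WT. Neither overlapped WT, and the combined differences were -0.67 (SE 0.17) at Cd274 and 0.67 (SE 0.16) at Pdcd1lg2, each with an adjusted p of 0.890 by limma. Of the 226 peaks, 213 had no overlap, so the choice by small p favoured it. The Cd274 start-site peak was at 0.02 (SE 0.09), with 0.05 in KO and -0.02 in P915H.

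Of the 139 peaks of the plasma cell list, whose median was 0.02, 2 were among the 9. Jchain, which joins IgM and IgA into polymers, had a peak 330 bp outside the gene at 1.13, 1.24 and 1.33 in KO, 1.50, 1.42 and 1.14 in P915H, and 1.96, 1.93 and 2.12 in WT, a difference of -0.71 (SE 0.21). Prdm1, which encodes the plasma cell regulator Blimp-1, had a start-site peak at 4.28, 4.29 and 4.45 in KO, 4.16, 4.15 and 4.42 in P915H, and 4.01, 4.02 and 3.60 in WT, a difference of 0.41 (SE 0.14). The WT replicate 3 was the lowest value at Prdm1, and without replicate 3 the difference was 0.20. Jun, an AP-1 subunit, and Id2, an inhibitor of E proteins, were at 0.45 each and at 0.17 and 0.19 without replicate 3.

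Pik3cd, which encodes the PI3K catalytic subunit delta downstream of the B cell receptor, was at -0.66 (SE 0.20), with values of 1.42 to 2.05 in the mutants and 2.26 to 2.64 in WT. Ccne1 (cyclin E1), which drives entry into S phase, was at 2.26, 2.55 and 2.18 in KO, 2.24, 2.18 and 2.15 in P915H, and 1.71, 1.48 and 1.88 in WT, a difference of 0.57 (SE 0.18). Fas, which carries the lpr mutation in all 3 genotypes, had a peak 379 bp from its start site at 2.85 to 3.08 in the mutants and 2.45 to 2.64 in WT, a difference of 0.44 (SE 0.13). Each was without overlap, and each had an adjusted p of 0.890 by limma. Of the 226 peaks with each mutant at an unadjusted p under 0.05 in the same direction, 213 were without overlap. Fas had a stronger start-site peak (chr19:34290535-34290747), with a mean log2 value of 4.55 against 2.84. It was at 0.13 (SE 0.14), with 0.23 in KO and 0.02 in P915H, and its groups overlapped. The strongest start-site peaks of the cell cycle list, that of Ccne1 among them, ran from -0.11 at Top2a to 0.24 at Cdk2. The Ccne1 peak given here is therefore a weaker one.

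At 9 of the 31 peaks named by the rule, KO and P915H differed from each other (adjusted p under 0.05, limma), beside 15.5% of all peaks. The combined mean there does not describe both mutants. Foxo1, a transcription factor of naive B cells, stood at 1.60, 0.96 and 1.16 in KO, 2.37, 2.77 and 2.43 in P915H, and 2.39, 2.63 and 2.76 in WT, so that P915H overlapped WT and KO did not. Il12rb2, a subunit of the interleukin-12 receptor, had values of 2.99 to 3.31 in KO, 3.97 to 4.20 in P915H and 3.94 to 4.21 in WT. At Cnih3, Hlf, Elovl5, Stat3 and Fam177a the difference between KO and P915H was 0.30 or less in size and did not pass the test (adjusted p 0.332 to 0.844, limma). The SE of such a difference has a median of 0.188, so this does not show that the mutants were alike.

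All 7 markers of age-associated B cells had a peak, 6 of them at the start site, and all 6 B cell markers had a peak. Both follicular markers, Cr2 and Fcer2a, also had a peak, and the Cr2 start site (4.93 on the log2 scale) was above the highest start site of the age-associated markers (Fcrl5, 4.76). At Cr2 the combined difference was -0.16 (SE 0.11), but the mutants lay on opposite sides of WT. KO was at -0.49 and P915H at 0.18 (adjusted p of KO minus P915H = 0.00742, limma). Of other cell types, 4 of 6 T cell, 3 of 4 natural killer, 3 of 4 macrophage, 3 of 3 dendritic and 1 of 2 erythroid markers had a peak. Their highest start sites were at 4.96 for natural killer (Prf1), 4.54 for dendritic, 4.47 for erythroid and 3.59 for T cell markers. Start sites of the macrophage markers with a peak were not known. Lyz2 of macrophages, the 3 neutrophil markers S100a8, S100a9 and Mpo, Cd4 and Cd8a of T cells, Ncr1 of natural killer cells and Gata1 of erythroid cells had no peak. Summed CPM over the peaks of each other cell type's list overlapped between mutants and WT: T cells 479 to 553 against 502 to 522, macrophages and monocytes 397 to 464 against 429 to 448, and erythroid cells 99.1 to 110.6 against 87.4 to 100.6. Natural killer cells gave 184 to 240 against 211 to 219, dendritic cells 1005 to 1097 against 1014 to 1027, and neutrophils 61.2 to 73.6 against 66.6 to 69.3. In a sorted population, a smaller share of some cells and lower accessibility in each cell cannot be told apart.

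Peaks at start sites stood slightly above the rest. The 17800 peaks within 1 kb of a start site had a median combined difference of 0.04, beside -0.03 for 27637 peaks elsewhere within a gene and -0.05 for 13814 within 100 kb of one. At start sites the medians within replicate numbers 1, 2 and 3 were -0.02, -0.03 and 0.13, and without replicate 3 the median was -0.03. The count at an unadjusted p under 0.05 with the same sign was 171 lower and 522 higher at start sites, and 185 lower and 104 higher without replicate 3. The higher start-site values thus rested on replicate number 3. Without the WT replicate 3 library alone, the start-site median was also -0.03. With the replicate term, that fit gives the same combined difference as leaving out replicate 3. It therefore cannot separate the part of that library, which was not tested in another way. On chromosome Y, 149 peaks had a median of 0.38 in KO minus WT and of -0.41 in P915H minus WT. Start sites on chromosome 18, with 1714 peaks, were not analysed.

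**Figure D5:**
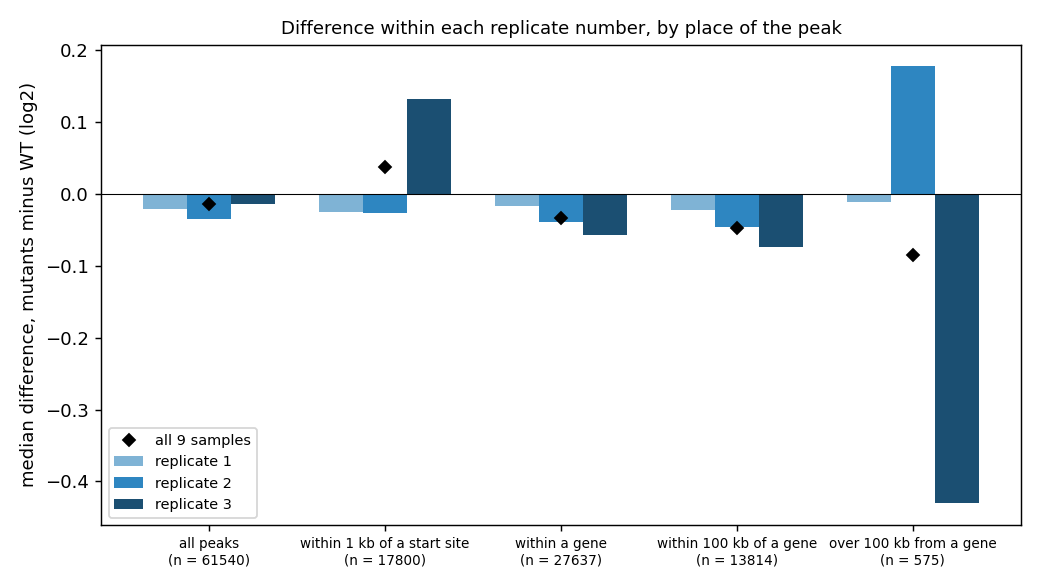
Median mutants-minus-WT difference (log2) within each replicate number (bars) and over all 9 samples (diamonds), by place of the peak; n is the number of peaks. At start sites the replicate 3 bar stands at 0.13 and the others lie below 0, and over 100 kb from a gene (575 peaks) the bars lie on both sides of 0.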

How the data were processed

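ATAC-seq data covered 9 samples, 3 each of KO, P915H and WT. The deposited values are log2 accessibility per peak, with antilogs summing to 0.987 to 1.014 times the fixed total of CPM in each sample. The submitters' processing notes list build mm10 and, without their roles, limma, MACS2, Picard 2.18.12, SAMtools, Bowtie2 2.3.3 and Trim Galore 0.6.5. Normalization, peak calling per sample or pooled, and the step that removed the replicate effect are not given in the sources used here.

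One model for all 9 samples was fitted with limma 3.58.1 under R 4.3.3, with terms for genotype and replicate number (4 residual degrees of freedom) and an intensity trend, with no filter and no pseudocount. The contrast was the mean of KO and P915H minus WT, two-sided, Benjamini-Hochberg adjusted over 61540 peaks, with an adjusted p threshold of 0.05 and the same sign in both mutants required. Because the replicate effect had been removed, whether samples of the same number belong together cannot be tested. Within-replicate differences were tested as an alternative. The fit was tested on simulated data.

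Peaks were assigned to the gene they overlap or the nearest within 100 kb. Named peaks were, as none passed, the 5 of smallest p in each direction, the peak of smallest p with the same sign in both mutants in each list, and all within 2 kb of Tlr9; where peaks were chosen after their values were seen, the text says so. The members and lists were chosen with earlier results of these data known. Lists are described by counts and medians. Alternatives were normalization, the replicate term, filter, weights, trend, thresholds, grouping, gene window and each sample left out. Plots used matplotlib 3.10.9, and tables pandas 2.3.3 with NumPy 2.4.6 in Python 3.11.15.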

Additional observations from a re-analysis of the deposited data

Results flagged for a closer look

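KO and P915H differed from each other at 9548 of 61540 peaks (adjusted p under 0.05, limma), although they entered the comparison with WT as 1 mutant mean. That count rests on single libraries: leaving out P915H replicate 1, 2 or 3 gave 5941, 3225 or 4731, leaving out KO replicate 2 or 3 gave 3817 or 3570, and leaving out replicate number 2 altogether gave 911. Among the peaks named by the rule, 9 differed between the mutants. KO minus P915H was -0.73 at Dynlt1b, -0.63 at Sytl3, -0.62 at LOC115488814 and -1.31 at Igf2bp2, where both mutants were below WT. It was -0.46 at Cd79a, -0.93 at Il12rb2, -1.28 at Foxo1 and -0.51 at Fos, where KO lay below P915H and P915H closer to WT. At Irf2 it was 0.90, with KO 1.17 and P915H 0.27 above WT. Adjusted p-values of these differences ran from 0.00436 to 0.0433. Single values were not tested for outlying samples in groups of 3. The sample weights that limma estimated over all peaks ran from 0.366 for WT replicate 3 to 2.92 for KO replicate 3.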

How the results depend on the processing

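The count of shared peaks was 0 in 23 of 25 alternatives: quantile or median normalization, a filter on low values, sample weights, no intensity trend, robust variance, other thresholds, 2 groups in place of 3, within-replicate differences, and both mutants at an adjusted p under 0.05. Leaving out each sample or each replicate number (12 fits) gave a range of 0 to 0. Without the replicate block, genotype alone, 8 peaks passed, 7 lower and 1 higher, and 6 of them also differed between KO and P915H. They were the peaks at Cnih3, Hlf (the higher one), Dynlt1b, Sytl3, LOC115488814 and Igf2bp2, and Gm41394 and Mup2, named because they passed here. That fit counts 6 residual degrees of freedom although the values hold 4. Requiring instead each mutant at an unadjusted p under 0.05 gave 226 peaks, 95 lower and 131 higher. That count moved over 1.5 times without WT replicate 1 (133 lower, 611 higher), WT replicate 2 (92 and 558), KO replicate 3 (64 and 63) and P915H replicate 3 (72 and 61), and with no replicate block (473 and 557), no intensity trend (205 and 165) and sample weights (196 and 160). The 2849 peaks at an unadjusted p under 0.05 became 5089 without KO replicate 1, 7207 without the replicate block, 3909 with sample weights and 959 with 2 groups. For 36 peaks, 31 named by the rule and 5 chosen after their values were seen, the difference was recomputed. They kept their direction in all 756 recomputed values, which the selection of most of them for a small p favoured. Of these values, 6 passed the threshold, all without the replicate block. Gene windows of 10 kb or the gene body alone gave 0 list peaks. With no intensity trend, 1 peak with opposite signs in the mutants passed. Depth is unknown, so no counting error could be given.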
